A study of Saccharomyces cerevisiae with 72 samples.

Results

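The proteasome was followed at the level of mRNA through 34 genes of budding yeast, of 6843 features measured. The genes were chosen by name: the 14 subunits of the 20S core particle, 18 subunits of the 19S regulatory particle, the proteasome-bound deubiquitinase *UBP6* and the transcription factor *RPN4*. The rule used no measured value, although earlier results of these data were known when it was set. All 34 passed the filter on low counts in both tests described below. The core subunits form an alpha ring (7 genes) and a beta ring (7 genes). The regulatory subunits followed form a base (10 genes, with *RPN10* and *RPN13* placed there) and a lid (8 genes). A further lid subunit, *SEM1*, was not among the 34 and was listed with the proteasome-associated proteins.

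The series asked which genes change as yeast cells duplicate their genome again and again with incomplete mitosis, a process called endomitosis. Polyploid cells were made in 2 ways, and each way had its own arrested and cycling controls. In the *mad1Δ bub2Δ* test, *mad1Δ bub2Δ* cells, which lack checkpoints that hold cells in mitosis when the spindle fails, became polyploid in the microtubule poison nocodazole at 30 °C. Their controls were *MAD1 BUB2* cells that arrested in mitosis in nocodazole at 30 °C, and cycling *mad1Δ bub2Δ* cells given the solvent DMSO at 30 °C. By the paper's account, each cycle of the polyploid *mad1Δ bub2Δ* cells left all DNA in the mother cell and none in the daughter. In the *cdc24-1 swe1Δ* test, *cdc24-1 swe1Δ* cells, which cannot bud at high temperature, became polyploid at 37 °C. Their controls were *cdc24-1 swe1Δ cdc20-1* cells, which arrested in mitosis at 37 °C, and cycling *cdc24-1 swe1Δ* cells, listed at 25 °C in the sample records. RNA was taken from 3 replicate cultures of each kind, at 0, 4, 8, 12 and 16 h for polyploid and arrested cells and at 0 and 16 h for cycling ones, which gave 72 libraries in 24 conditions. The strains were of the W303 background and shared their marker mutations, in *ADE2*, *CAN1*, *HIS3* (*his3-11,15*), *LEU2*, *TRP1* and *URA3*. The *cdc20-1* strain was MATα and the others were MATa, and the *cdc24-1 swe1Δ* strain came from S288C by backcrossing to W303. Each genotype was represented by a single strain. A change over time in polyploid cells therefore held the effects of nocodazole or of 37 °C as well as of ploidy, which cannot be told apart within those cells. The arrested cells received the same treatment. By the paper's account, inviable cells also became more frequent as DNA content rose in both strains, whereas cycling controls stayed viable. The part of inviable cells in the changes below was not tested.

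Mean DNA content, measured by flow cytometry as pulse area, rose in polyploid *mad1Δ bub2Δ* cultures from between 98.17 and 107.3 kAU (kilo arbitrary units) at 0 h to between 425.2 and 451.6 kAU at 16 h. It rose from between 103.8 and 112.7 to between 245.4 and 276.9 kAU in polyploid *cdc24-1 swe1Δ* cultures. Nocodazole-arrested cultures had between 80.96 and 82.26 kAU at 0 h, 109.8 and 114.6 at 4 h, and 96.85 and 98.9 at 16 h. The *cdc20-1*-arrested cultures went from between 81.88 and 82.32 kAU at 0 h to between 109.1 and 111.5 at 8 h. At 16 h they were back at between 81.03 and 87.42 kAU, and cycling *cdc24-1 swe1Δ* cultures then had between 85.69 and 99.67. A library held 1597321 to 9987276 counts (median 6918124). Ribosomal RNA took from 0.731% to 47.6% of a library and exceeded 10% in 2 libraries, both of polyploid *cdc24-1 swe1Δ* cells, to which the smallest library also belonged. *BUB2* had 0 counts in all 21 *mad1Δ bub2Δ* libraries, whereas *MAD1* had 121 to 349 counts there and 372 to 1012 in the arrested *MAD1 BUB2* libraries. *SWE1* had 0 counts in 35 of the 36 libraries of the other test. The *cdc20-1*-arrested 16 h library of replicate 2 had 152 *SWE1* counts and, against its MATα genotype, 491 CPM (counts scaled to library size) of the MATa receptor gene *STE2*, so results that rest on it are also given without it. The summed level of 4 MATα-specific genes moved from between 20.2 and 28.9 CPM at 0 h to between 138 and 199 CPM at 16 h in nocodazole-arrested cells, and from between 2610 and 3460 to between 87.3 and 170 CPM in *cdc20-1*-arrested cells. That of 6 MATa-specific genes fell over 16 h from between 1660 and 1940 to between 606 and 674 CPM in polyploid *mad1Δ bub2Δ* cells and from between 790 and 916 to between 176 and 384 CPM in polyploid *cdc24-1 swe1Δ* cells. In nocodazole arrest it went from between 1250 and 1460 to between 724 and 833 CPM. In *cdc20-1* arrest it went from between 70.4 and 91 to between 70.9 and 932 CPM. Not every gene followed its sum. The MATa-specific *AGA2* rose by 1.68 (log2 change) in polyploid *cdc24-1 swe1Δ* cells and by 2.57 in nocodazole arrest. The MATα-specific sum in polyploid *cdc24-1 swe1Δ* cells went from between 24.8 and 37.4 to between 54 and 62.8 CPM. The part of these markers in the results below was not tested.

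The 26S proteasome degrades proteins that carry ubiquitin chains. The base of the regulatory particle unfolds the substrate with a ring of ATPases (*RPT1* to *RPT6*), the lid removes the ubiquitin chain through *RPN11*, and the core cuts the chain of amino acids at the beta subunits *PRE3*, *PUP1* and *PRE2*. In budding yeast the subunit genes are activated together by Rpn4, a short-lived factor that the proteasome itself degrades, through a promoter element called PACE.

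The PACE element was looked for as the letters GGTGGCAAA on both strands, in the window from 250 bases before to 50 bases after the A of the start codon of each gene (R64 assembly, RefSeq annotation). It was in 27 of the 34 windows (79.4%) and in 72 of the windows of 6001 protein-coding genes (1.2%). By part of the complex it was in 6 of 7 alpha ring, 6 of 7 beta ring, 8 of 10 base and 7 of 8 lid genes. The element lay 75 to 174 bases before the start codon, with a median of 111, on the strand of the gene in 19 genes and on the other strand in 8. Its core GTGGCAA, which every PACE element contains, was in 32 windows (94.1%) against 4.68% of all windows, and *RPN4* and *RPN13* had neither. *PRE5*, *PUP1*, *RPN8*, *RPN10* and *UBP6* had the core alone. The sequences below are from RefSeq on the R64 assembly and are written 5′ to 3′ on the strand of the gene. They are those of the members called for DNA content at the Bonferroni threshold in either test (*UBP6*, *PUP1*, *RPN9*). The others had the largest 16 h changes (*PRE3*, *RPT1*, *RPN11*, *RPT6*) or the smallest ones (*RPN2*, *RPT4*). Capitals mark the element, or the core where the full element was absent, and its reverse complement (TTTGCCACC or TTGCCAC) where it lay on the other strand.

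*UBP6*, chrVI:164927-165013 (+ strand): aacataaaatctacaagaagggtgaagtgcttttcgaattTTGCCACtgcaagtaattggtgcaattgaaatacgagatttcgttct
*PUP1*, chrXV:631862-631948 (- strand): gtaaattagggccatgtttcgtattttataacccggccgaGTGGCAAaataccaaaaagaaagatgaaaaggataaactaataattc
*RPN9*, chrIV:1322056-1322144 (+ strand): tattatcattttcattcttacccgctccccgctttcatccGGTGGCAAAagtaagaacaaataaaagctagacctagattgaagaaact
*PRE3*, chrX:435005-435093 (+ strand): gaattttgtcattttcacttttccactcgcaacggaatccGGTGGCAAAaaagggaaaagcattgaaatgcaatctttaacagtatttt
*RPT1*, chrXI:174018-174106 (+ strand): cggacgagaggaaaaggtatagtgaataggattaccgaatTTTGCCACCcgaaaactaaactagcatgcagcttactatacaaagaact
*RPN11*, chrVI:153229-153317 (+ strand): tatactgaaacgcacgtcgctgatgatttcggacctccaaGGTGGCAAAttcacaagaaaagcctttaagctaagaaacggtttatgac
*RPT6*, chrVII:411322-411410 (- strand): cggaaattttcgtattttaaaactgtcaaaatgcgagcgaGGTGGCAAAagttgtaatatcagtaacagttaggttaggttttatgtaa
*RPN2*, chrIX:220771-220859 (- strand): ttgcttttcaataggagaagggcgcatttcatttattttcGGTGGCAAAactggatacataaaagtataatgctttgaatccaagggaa
*RPT4*, chrXV:813772-813860 (- strand): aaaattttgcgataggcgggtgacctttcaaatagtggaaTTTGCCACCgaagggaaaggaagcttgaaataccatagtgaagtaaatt

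The members shown for the largest and for the smallest changes all carried the full element, as did 27 of the 34 members. They therefore cannot show whether the element goes with the size of a change. Members with and without it were not compared. A match of letters is a description and not a measured binding site.

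Before induction the mRNAs of the subunits stood at similar levels. Over the 18 libraries taken at 0 h, all 32 subunits lay within 2-fold of their median of 213 TPM, a measure corrected for transcript length. The beta subunit *PUP3* (YER094C) was highest, at 337 ± 74.5 TPM (SD, n = 18), and the lid subunit *RPN3* was lowest, at 119 ± 25.9 TPM, a ratio of 2.83. Alpha and beta ring genes had medians of 250 and 254 TPM, and base and lid genes 182 and 152 TPM. *UBP6* stood at 96.9 ± 23.6 TPM and *RPN4* at 75 ± 33.8 TPM, both under every subunit mean. Across the 24 condition means, which share cultures and scaling, the correlation of a subunit's log2 CPM with the mean of the other subunits had a median of 0.859. It was highest for the alpha subunits *PRE5* (0.962) and *PRE10* (0.952) and for the ATPase *RPT6* (0.951), and lowest for the beta subunit *PRE7* (0.386) and the base scaffold *RPN2* (0.507). *UBP6* had 0.724 and *RPN4* had -0.424.

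The proteasome mRNAs fell relative to the typical gene in both kinds of polyploid cells, on scaled counts (TMM) and on the TPM scale alike. Changes below are log2 changes from edgeR on TMM-scaled counts, called at a Benjamini-Hochberg adjusted p under 0.05 over all genes tested. On this scale the median of all genes moved by at most 0.09 in any time course, whereas on the log2 TPM scale it moved by up to 0.84. A fall here means a fall against the typical mRNA and not a smaller share of all mRNA. In these bulk samples, fewer cells of a kind and less RNA per cell cannot be told apart.

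In polyploid *mad1Δ bub2Δ* cells, 17 of the 34 fell by 4 h, where 10.9% of all genes fell, and 25 fell by 8 h, where 16% of all genes did. At 12 h 15 members had fallen (16.8% of all genes), and at 16 h 19 had (21.7%). Only *RPN4* rose at 12 and 16 h, and 23.2% of all genes rose at 16 h. The members' medians were -0.43, -0.62, -0.40 and -0.41 at 4, 8, 12 and 16 h, with all genes between 0.03 and 0.04. On the log2 TPM scale the members' median at 16 h was -0.00 while that of all genes was 0.42, so the difference from all genes was -0.44 by scaled counts and -0.42 by TPM. At 4 h 8 of 10 base, 3 of 7 alpha, 2 of 7 beta and 3 of 8 lid genes were down, and the parts were not tested against each other. At 16 h 6 of 8 lid, 6 of 10 base, 4 of 7 beta and 2 of 7 alpha genes were down. Without polyploid replicate 1 the number called in either direction was 8 at 4 h and 14 at 8 h. Without polyploid replicate 2 it was 8 at 12 h and 9 at 16 h, where all libraries gave 16 and 20.

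The 0 h level of these cultures bears on that count. Cycling *mad1Δ bub2Δ* cells are the same strain, yet at 0 h 17 members were higher in the cultures about to become polyploid than in the cycling ones, where 7.14% of all genes were, and the members' median difference was 0.42 (all genes 0.03). Against cycling cells at 0 h, polyploid cells at 16 h had 0 members lower by edgeR and DESeq2 at an adjusted p under 0.05 (22.6% of all genes by edgeR). By edgeR 0 were also lower at an unadjusted p under 0.05, 3 were called higher (24% of all genes) and the median was 0.00. With limma on log2 TPM 0 were called lower and 29 higher (54.8% of all genes), with a median of 0.595. On that scale the median of all genes was 0.611, so its 0 cannot show that members kept pace with the typical gene. Against cycling cells at 16 h, polyploid cells had 20 members lower (30.6% of all genes), with a median of -0.40 on scaled counts. This reversed on the log2 TPM scale, where the median was 0.655 and that of all genes 0.99. These comparisons with cycling cells were chosen after seeing the data.

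More members were called on scaled counts in polyploid *cdc24-1 swe1Δ* cells, a difference that was not tested. By 4 h 22 of 34 members had fallen (11.7% of all genes), by 8 h 26 (14.2%), by 12 h 32 (20.2%) and by 16 h 32 (23.4%). With limma on log2 TPM the calls in either direction were 5, 2, 13 and 6 at the 4 times. They were 31, 32, 6 and 5 in polyploid *mad1Δ bub2Δ* cells, so the order of the tests turned at 4 and 8 h. The member that rose at 16 h was again *RPN4*, where 26% of all genes rose, and *RPN2* was the single member not called. The medians were -0.50, -0.52, -0.77 and -0.78 at the 4 times, with all genes between 0.02 and 0.07. Relative to all genes the 16 h median was -0.85 by scaled counts and -0.82 by TPM. All 7 alpha, all 7 beta and all 8 listed lid genes were down at 16 h, with medians of -0.74, -0.83 and -0.71. Of 10 base genes 9 were, with a median of -0.88. Against cycling cells of this strain most members were lower too: 27 were lower than at 0 h (25% of all genes) and 25 were lower than at 16 h (25.8%), with medians of -0.73 and -0.54. Without polyploid replicate 1 or 2 the number called was 11 or 10 at 4 h, and without replicate 2 or 3 it was 12 or 16 at 8 h. The libraries with over 10% ribosomal RNA were 12 h replicate 1 (47.6%) and 16 h replicate 2 (16.7%) of these cells, and the smallest library was 16 h replicate 3. Without those over 10% the numbers called in either direction at the 4 times were 24, 27, 33 and 29, where all libraries gave 22, 26, 32 and 33. Without replicate 3 the 16 h number was 33.

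**Figure D1:**
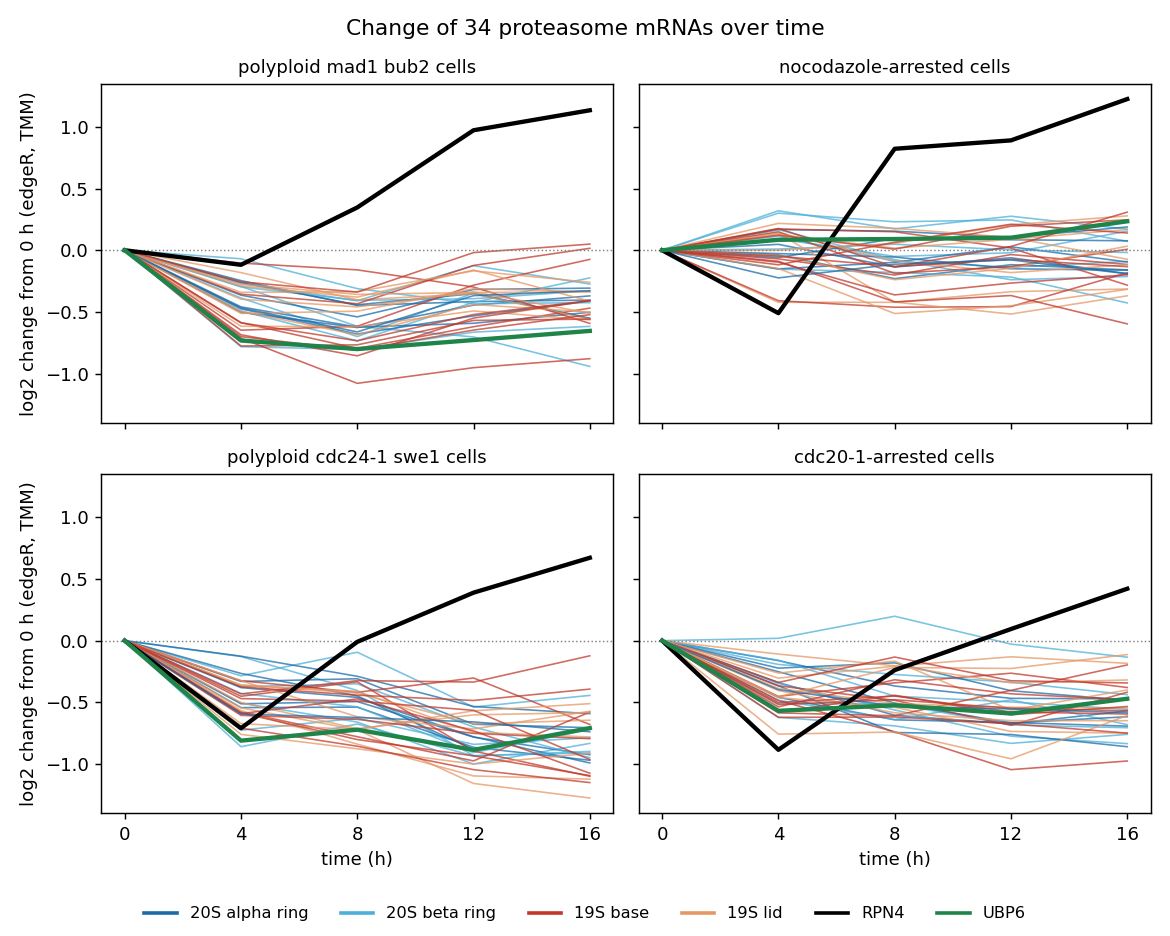
Log2 change from 0 h (vertical axis, edgeR on TMM-scaled counts) against time in h (horizontal axis) of the 34 proteasome mRNAs in polyploid and arrested cells of both tests, 1 line per gene, coloured by part of the complex. Most lines lie below 0 in both polyploid kinds and in *cdc20-1*-arrested cells, where the 16 h medians were -0.41, -0.78 and -0.55, and around 0 in nocodazole-arrested cells (-0.09), while the line of *RPN4* crosses them upwards. On the log2 TPM scale the medians were -0.00, -0.16, 0.04 and 0.68.

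The counts were unlike in the 2 arrests, although the difference between the arrests was not tested. In nocodazole-arrested cells few members were called at any time: 2 at 4 h, where 38.6% of all genes changed, 4 at 8 h (54.4%), 5 at 12 h (56.4%) and 2 at 16 h (57.7%). At 16 h these were *RPN4*, which rose, and the ATPase *RPT1*, which fell. With limma on log2 TPM 16, 24, 27 and 31 members were called at the 4 times, all of them rises, so both the number and the direction depended on the scale. With culture as a block, 7 members were called at 8 h and 5 at 16 h. Leaving out arrested replicates left 0 calls at 4 h for each replicate, 1 or 2 at 8 h without replicate 2 or 3, and 1 at 12 h for each. In *cdc20-1*-arrested cells 17 members had fallen by 4 h (20.7% of all genes), 22 by 8 h (25.5%), 27 by 12 h (26.4%) and 27 by 16 h (23.9%), with medians of -0.43, -0.50, -0.56 and -0.55. On the log2 TPM scale the 12 and 16 h medians were 0.02 and 0.04 against 0.55 and 0.62 for all genes. The count fell to 9 or 10 at 4 h without arrested replicate 1 or 3, to 11 at 8 h without replicate 1, and to 14 or 16 at 16 h without replicate 1 or 3. Without the library that held *SWE1* counts, each of the 4 counts stayed within 1.5 times.

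In cycling cells members rose in one strain, and a single member was called in the other. In cycling *mad1Δ bub2Δ* cells 19 members rose between 0 and 16 h (19.9% of all genes), with 6 of 7 beta, 6 of 8 lid, 5 of 7 alpha and 2 of 10 base genes, and a median of 0.41 on scaled counts (all genes 0.00), although on the log2 TPM scale the median was -0.05 (all genes -0.38). Without cycling replicate 2 the number called was 2, so the count rested on that culture. In cycling *cdc24-1 swe1Δ* cells 1 member was called, *RPT3*, which fell by 0.38 (13.6% of all genes changed), and it was not called with culture as a block.

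**Figure D2:**
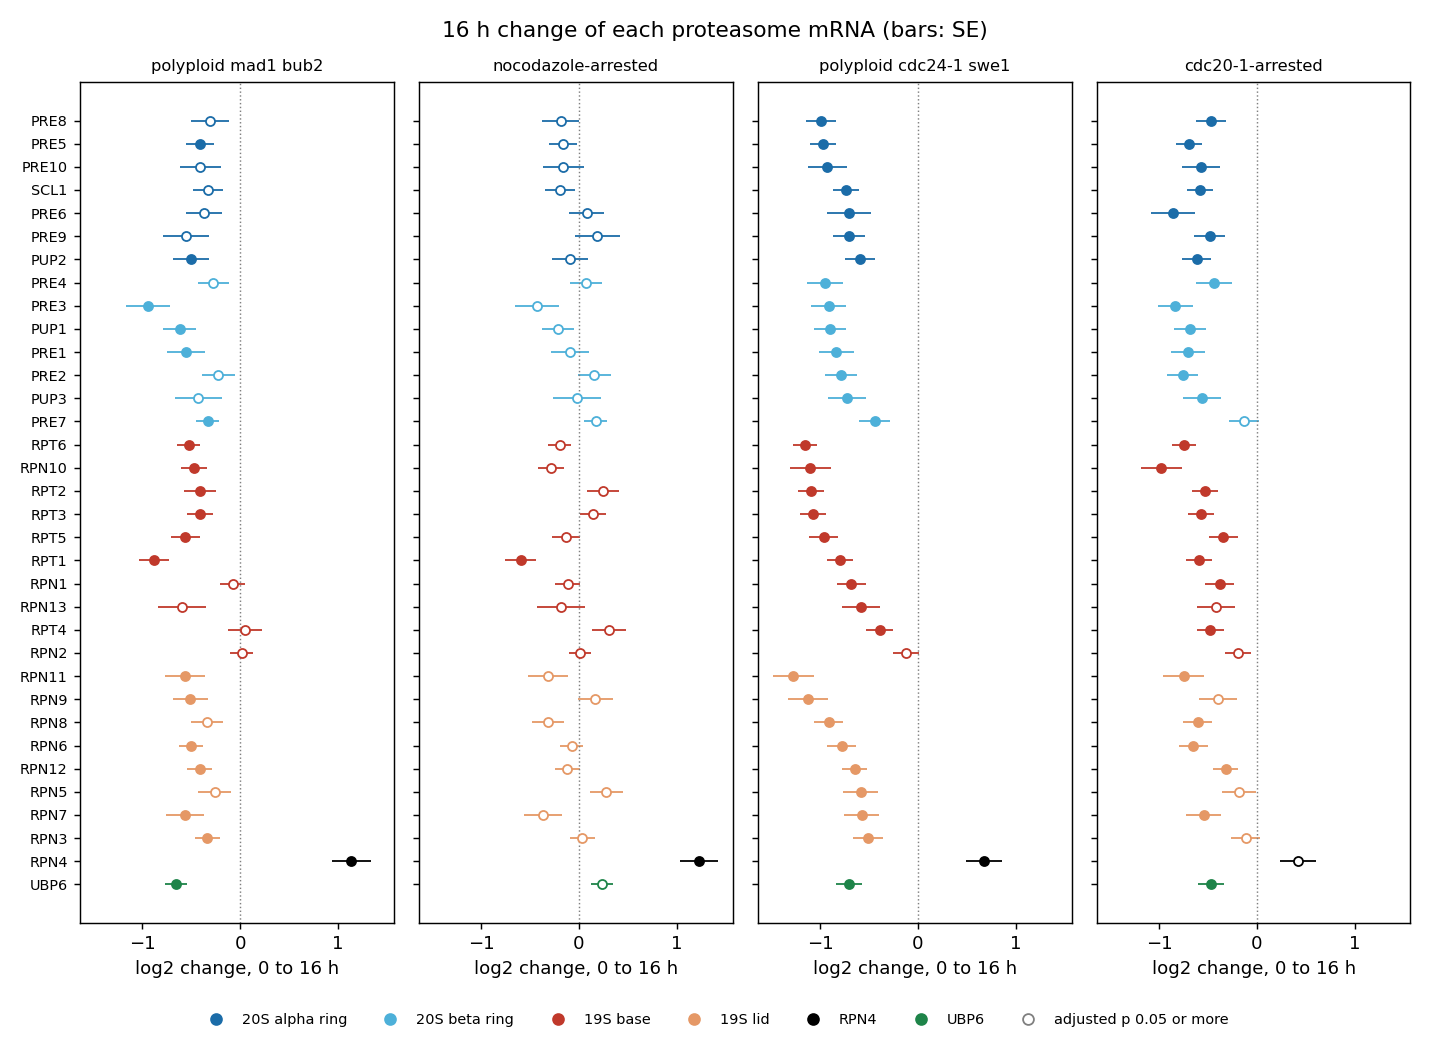
Log2 change from 0 to 16 h on scaled counts (horizontal axis, bars are SE) of each of the 34 mRNAs (vertical axis), grouped by part of the complex, in the 4 kinds of cells sampled over 5 times. Filled points have an adjusted p under 0.05: 20 members in polyploid *mad1Δ bub2Δ* cells, 2 in nocodazole arrest, 33 in polyploid *cdc24-1 swe1Δ* cells and 27 in *cdc20-1* arrest.

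The 3 catalytic subunits of the core all fell in polyploid *cdc24-1 swe1Δ* cells, and *PRE3* and *PUP1* fell in both polyploid kinds. *PRE3* (YJL001W), which cuts after acidic residues, had 246, 238 and 160 CPM at 0 h and 128, 102 and 104 CPM at 16 h in polyploid *mad1Δ bub2Δ* cells, so the 2 sets did not overlap. Its change, -0.94 ± 0.22 (SE; adjusted p = 0.00101), was the largest of any subunit in those cells. *PRE3* went in polyploid *cdc24-1 swe1Δ* cells from 203, 207 and 178 CPM to 124, 98.7 and 90.8 CPM, a change of -0.91 ± 0.18 (adjusted p = 0.000118). *PRE3* also fell in *cdc20-1* arrest (-0.84, adjusted p = 0.000262) and was not called in nocodazole arrest (-0.43, adjusted p = 0.103). In cycling *mad1Δ bub2Δ* cells it rose from 152, 125 and 128 CPM to 248, 377 and 189 CPM, with replicate 2 highest.

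*PUP1* (YOR157C), which cuts after basic residues, went from 244, 184 and 143 CPM to 148, 115 and 108 CPM in polyploid *mad1Δ bub2Δ* cells, and the highest 16 h library lay above the lowest 0 h library. The change was -0.62 ± 0.17 (adjusted p = 0.00313). *PUP1* went in polyploid *cdc24-1 swe1Δ* cells from 160, 164 and 199 CPM to 87.4, 87.7 and 108 CPM, without overlap, a change of -0.90 ± 0.17 (adjusted p = 5.32e-05). *PRE2* (YPR103W), which cuts after hydrophobic residues, had 370, 368 and 237 CPM at 0 h and 290, 270 and 270 CPM at 16 h in polyploid *mad1Δ bub2Δ* cells. These libraries overlapped and the change, -0.22 ± 0.17, was not called (adjusted p = 0.289). *PRE2* went from 362, 313 and 310 CPM to 202, 177 and 195 CPM in polyploid *cdc24-1 swe1Δ* cells, a fall of 0.79 on the log2 scale (adjusted p = 0.000153), and it fell by a similar 0.76 in *cdc20-1* arrest. For all 3 genes, replicate 3 was the lowest 0 h library of the polyploid *mad1Δ bub2Δ* cells.

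In the base, *RPT1* (YKL145W), an ATPase of the unfolding ring, was called lower at 16 h in all 4 kinds of treated cells. Its 16 h libraries lay below all of 0 h in each of the 4, which also held for *PRE3*, *RPT6* and *RPN11*. In nocodazole arrest *RPT6* (adjusted p = 0.151) and *RPN11* (adjusted p = 0.194) were nevertheless not called, nor was *PRE3*. *RPT3* and *UBP6* did not overlap in any of the 4 either, but lay above 0 h in nocodazole arrest. How many of all genes separate in this way was not counted. *RPT1* went from 499, 508 and 311 CPM to 261, 233 and 218 CPM in polyploid *mad1Δ bub2Δ* cells (-0.88 ± 0.16, adjusted p = 2.94e-05). In nocodazole arrest it went from 394, 353 and 368 CPM to 249, 238 and 247 CPM (-0.60 ± 0.16, adjusted p = 0.0015). The changes were -0.80 in polyploid *cdc24-1 swe1Δ* cells and -0.60 in *cdc20-1* arrest, and on the log2 TPM scale that in nocodazole arrest turned to 0.19. *RPT6* (YGL048C), another ATPase, went from 379, 406 and 422 CPM to 191, 173 and 183 CPM in polyploid *cdc24-1 swe1Δ* cells, a change of -1.15. In polyploid *mad1Δ bub2Δ* cells it went from 478, 491 and 355 CPM to 332, 318 and 267 CPM (-0.52 ± 0.12, adjusted p = 0.000591).

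The members that changed least were also in the base. *RPN2* (YIL075C), a large scaffold subunit, had 845, 832 and 837 CPM at 0 h and 823, 796 and 911 CPM at 16 h in polyploid *mad1Δ bub2Δ* cells, which overlapped, with a change of 0.02 ± 0.11 (adjusted p = 0.926). It was lower in between, with 603, 729 and 644 CPM at 4 h, under each 0 h library. *RPN2* went from 721, 808 and 778 CPM to 697, 627 and 807 CPM in polyploid *cdc24-1 swe1Δ* cells (-0.12 ± 0.13, adjusted p = 0.456). *RPT4* (YOR259C), an ATPase, had 361, 344 and 251 CPM at 0 h and 355, 337 and 291 CPM at 16 h in polyploid *mad1Δ bub2Δ* cells, an overlap with a change of 0.05 ± 0.17 (adjusted p = 0.845). Polyploid *cdc24-1 swe1Δ* cells took *RPT4* from 314, 334 and 360 CPM to 263, 223 and 285 CPM, a fall of 0.39 on scaled counts that turned to 0.23 on the log2 TPM scale.

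In the lid, *RPN11* (YFR004W), the enzyme that cuts ubiquitin chains from substrates, had the largest fall of any member in polyploid *cdc24-1 swe1Δ* cells. It went from 191, 219 and 225 CPM to 103, 73.4 and 87.3 CPM, a change of -1.28 ± 0.21 (adjusted p = 1.23e-05). The 16 h libraries lay well under those of 0 h. In polyploid *mad1Δ bub2Δ* cells *RPN11* went from 251, 253 and 187 CPM to 182, 130 and 154 CPM (-0.56, adjusted p = 0.0267). *RPN9* (YDR427W), a structural lid subunit, went from 168, 236 and 204 CPM to 104, 65.8 and 113 CPM in polyploid *cdc24-1 swe1Δ* cells, without overlap (-1.12 ± 0.20, adjusted p = 3.64e-05). In *cdc20-1* arrest *RPN9* had 154, 211 and 212 CPM at 0 h and 138, 172 and 115 CPM at 16 h, which overlapped and was not called (-0.40, adjusted p = 0.0882). The overlapping library, at 172 CPM, was the one that held *SWE1* counts, and without it *RPN9* was called (-0.57 ± 0.22, adjusted p = 0.0293).

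*UBP6* (YFR010W), the deubiquitinase that sits on the base and trims ubiquitin from substrates, fell early and stayed low in both kinds of polyploid cells. In polyploid *mad1Δ bub2Δ* cells it had 245, 265 and 213 CPM at 0 h, 125, 149 and 163 CPM at 4 h and 152, 154 and 150 CPM at 16 h. All libraries from 4 h on lay below those of 0 h. The changes were -0.73, -0.80, -0.73 and -0.65 at 4, 8, 12 and 16 h, each with an SE of 0.12 and adjusted p of 4.07e-05, 5.89e-06, 1.14e-05 and 3.67e-05. *UBP6* went in polyploid *cdc24-1 swe1Δ* cells from 170, 230 and 205 CPM to 116, 111 and 116 CPM at 4 h and 125, 125 and 123 CPM at 16 h. The changes were -0.81, -0.72, -0.89 and -0.71, again with no overlap with 0 h. In *cdc20-1* arrest *UBP6* went from 223, 243 and 232 CPM to 159, 174 and 157 CPM (-0.47 ± 0.13, adjusted p = 0.00366). In nocodazole arrest it did not fall: the 0 h libraries had 183, 211 and 214 CPM and the 16 h libraries 218, 235 and 261 CPM (0.23 ± 0.12, adjusted p = 0.0849). Cycling *mad1Δ bub2Δ* cells had 170, 167 and 164 CPM at 0 h, under the polyploid cultures of that time. Against them the 16 h difference was -0.125 and not called, and against cycling cells at 16 h it was -0.285 and called. On the log2 TPM scale the 16 h changes in polyploid cells were -0.25 and -0.07, neither of them called, and that in *cdc20-1* arrest turned to 0.10.

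*RPN4* (YDL020C), the activator of the subunit genes, rose by 16 h in 3 of the 4 treated kinds of cells, and in all 4 without the library that held *SWE1* counts. In polyploid *mad1Δ bub2Δ* cells it had 130, 124 and 112 CPM at 0 h, 188, 186 and 335 CPM at 12 h and 262, 240 and 298 CPM at 16 h. The 12 and 16 h libraries lay above all of 0 h. The changes were 0.97 at 12 h (adjusted p = 0.000248) and 1.14 ± 0.20 at 16 h (adjusted p = 2.61e-05). In nocodazole arrest *RPN4* went from 173, 157 and 172 CPM to 107, 117 and 125 CPM at 4 h and then to 385, 401 and 384 CPM at 16 h. It thus fell at 4 h (-0.51, adjusted p = 0.04), a call lost without any of the arrested replicates, and rose by 1.23 ± 0.20 at 16 h (adjusted p = 4.12e-06). In polyploid *cdc24-1 swe1Δ* cells *RPN4* had 216, 148 and 212 CPM at 0 h, 111, 126 and 111 CPM at 4 h and 324, 269 and 328 CPM at 16 h, again a dip and then a rise beyond the 0 h libraries. The changes were -0.71 at 4 h (adjusted p = 0.00389) and 0.67 ± 0.18 at 16 h (adjusted p = 0.00321). In *cdc20-1* arrest the dip was -0.89 (adjusted p = 0.000252), and at 16 h the libraries had 370, 289 and 453 CPM against 251, 236 and 365 CPM at 0 h, which overlapped and was not called (0.42 ± 0.18, adjusted p = 0.0536). The overlap came from the library that held *SWE1* counts (289 CPM), and without it the change was 0.57 ± 0.19 and called (adjusted p = 0.0141). Cycling cells showed no called change, with -0.11 and -0.07. The 16 h rises were also called on the log2 TPM scale and against cycling cells of either time. The change of *RPN4* over 16 h did not pass the test of a difference between polyploid and arrested cells, which was -0.09 ± 0.28 (adjusted p = 0.847) in the *mad1Δ bub2Δ* test and 0.25 ± 0.26 (adjusted p = 0.581) in the other.

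**Figure D3:**
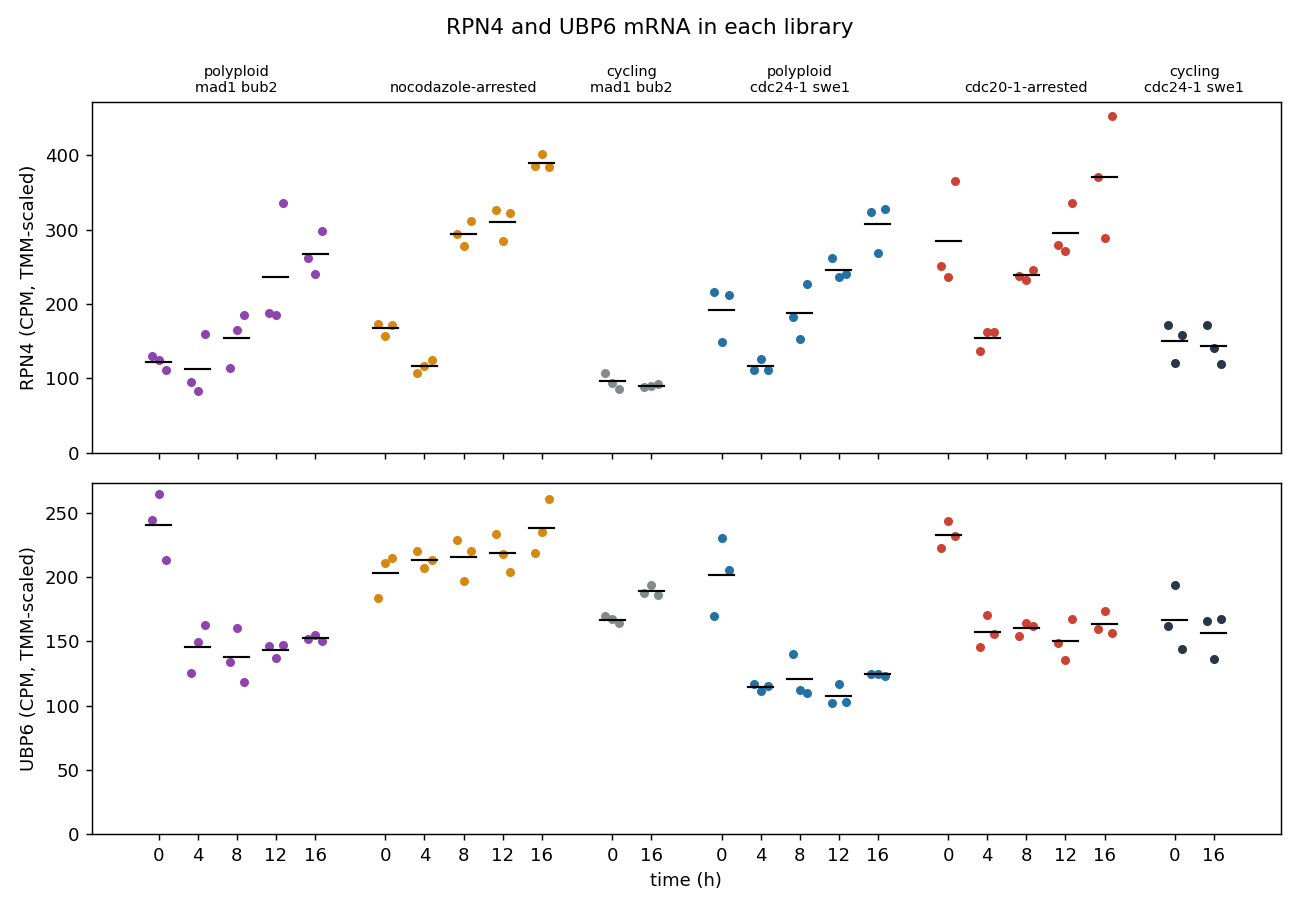
*RPN4* (upper) and *UBP6* (lower) in each library, in TMM-scaled CPM on the vertical axis, by kind of cells and time in h on the horizontal axis; points are the 3 replicate cultures and bars their mean. By 16 h *RPN4* climbs to between 240 and 298 CPM in polyploid *mad1Δ bub2Δ* cells and to between 384 and 401 CPM in nocodazole arrest, while *UBP6* stays under its 0 h libraries in polyploid and *cdc20-1*-arrested cells on this scale.

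The change in polyploid cells was then compared with that in arrested cells of the same test, which had the same drug or temperature. The mean DNA content of arrested cultures was at most 114.6 kAU and was not constant over time. In the *mad1Δ bub2Δ* test 13 members fell more in polyploid cells over 4 h (13.6% of all genes), with a median difference of -0.49 (all genes -0.01): 8 of 10 base genes, 2 beta genes, 2 lid genes and *UBP6*. Over 16 h 5 members did (12.6% of all genes), namely *UBP6* (-0.89 ± 0.17, adjusted p = 0.000227), *RPN9* (-0.68), *RPT2* (-0.66), *RPT3* (-0.55) and *PRE7* (-0.50), with a median of -0.37. The share of members over 16 h, 14.7%, was near that of all genes. The 4 h count was 4, 7 or 5 without arrested replicate 1, 2 or 3, and the 16 h count was 1 without any arrested replicate, 2 without polyploid replicate 1 and 1 without polyploid replicate 2. At 0 h 2 members, the ATPases *RPT3* and *RPT6*, were called higher in the cells that became polyploid (5.88%, and 5.91% of all genes). At an unadjusted p under 0.05 by edgeR 17 members differed, 16 of them higher. The members' median difference at 0 h was 0.30 (all genes 0.04), which enters the differences in change above. Without polyploid replicate 3 the number called at 0 h was 14, and with the replicate number as a block it was 5. Without any other single replicate of polyploid or arrested cells it was 0.

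In the *cdc24-1 swe1Δ* test few members differed between polyploid and arrested cells. The difference over 4 h was called for 0 members by edgeR, by DESeq2 and by limma (0 at an unadjusted p under 0.05 by edgeR, and 7.23% of all genes were called), with a median of -0.09. Over 16 h it was called for 2 (7.53% of all genes), the ATPases *RPT5* (-0.62 ± 0.21, adjusted p = 0.0457) and *RPT2* (-0.56 ± 0.19, adjusted p = 0.0489), with a median of -0.23. Neither was called without the library that held *SWE1* counts, without the libraries over 10% ribosomal RNA, with culture as a block, without any single arrested replicate or without polyploid replicate 2, and 1 was called without polyploid replicate 3. At 0 h 0 members differed by edgeR, 1 by DESeq2 and 1 at an unadjusted p under 0.05 (9.26% of all genes were called), and 1 was called without the library that held *SWE1* counts, without arrested replicate 2 or with the replicate number as a block.

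The measure used in the study's methods was the slope of expression on mean DNA content over the 36 libraries of a test, given here as log2 change per 100000 AU and called with edgeR at a Bonferroni-adjusted p under 0.05. Run on these counts, DESeq2, the tool of the study's methods, called falling slopes for 2 members in the *mad1Δ bub2Δ* test, *UBP6* and *RPT1*, and for 6 in the *cdc24-1 swe1Δ* test. With edgeR, in the *mad1Δ bub2Δ* test 1 member was called, and 1.28% of all genes had a falling slope. It was *UBP6*, at -0.15 ± 0.03 (adjusted p = 0.0103). That call was lost without any single polyploid or arrested replicate, with culture as a block and with the kind of cells as a covariate, while the slope stayed between -0.145 and -0.17. At a Benjamini-Hochberg threshold 8 members had falling slopes (9.78% of all genes). The median slope was -0.05 (all genes -0.02).

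In the *cdc24-1 swe1Δ* test 3 members were called (2.06% of all genes had a falling slope). These were *RPN9* at -0.39 ± 0.07 (adjusted p = 0.00546), *UBP6* at -0.32 ± 0.05 (adjusted p = 0.00495) and *PUP1* at -0.36 ± 0.06 (adjusted p = 0.0102). With culture as a block none of these 3 was called, and the single member called was *RPT6*. Without the libraries over 10% ribosomal RNA *UBP6* alone was called, and without polyploid replicate 2 or 3 there was 0. At a Benjamini-Hochberg threshold 22 members fell (13.6% of all genes), among them all 8 listed lid genes, 6 base, 5 beta and 2 alpha genes and *UBP6*. The median slope was -0.21 (all genes 0.00).

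The slopes of the 2 tests could be compared directly, by their interaction over the 72 libraries. At the Bonferroni threshold the difference was called for 0 members by edgeR and 2 by DESeq2 (18 at an unadjusted p under 0.05 by edgeR, and 2.78% of all genes were called). At the Benjamini-Hochberg threshold 10 members were steeper in the *cdc24-1 swe1Δ* test (6.78% of all genes), 6 of them in the lid, with differences for *RPN9*, *PUP1* and *UBP6* of -0.30 (adjusted p = 0.00117), -0.25 (adjusted p = 0.00519) and -0.16 (adjusted p = 0.0349). DNA content covered a wider range in the other test, up to 451.6 kAU, and its relation to expression was assumed linear in both. *RPN4* had a slope near 0 in each, 0.05 ± 0.08 and -0.02 ± 0.11.

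**Figure D4:**
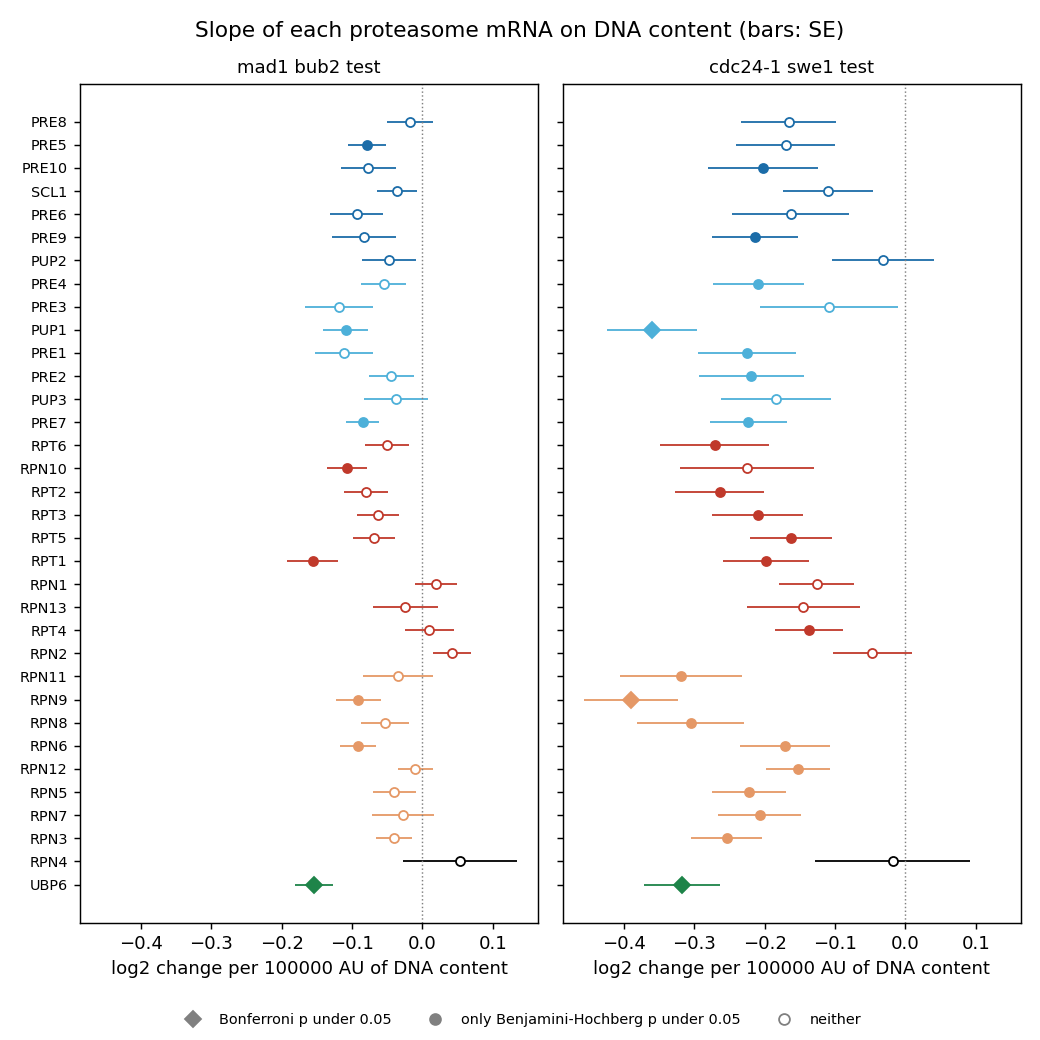
Slope of each of the 34 mRNAs on mean DNA content (horizontal axis, log2 change per 100000 AU, bars are SE) in the *mad1Δ bub2Δ* test (left) and the *cdc24-1 swe1Δ* test (right), in the same gene order on the vertical axis. Diamonds pass the Bonferroni threshold (*UBP6* on the left, *PUP1*, *RPN9* and *UBP6* on the right), and the medians are -0.05 and -0.21.

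The share of the transcriptome given to the 32 subunits showed what the scaled counts leave out. As a percentage of TPM outside ribosomal RNA, it was 0.632, 0.918 and 0.92 at 0 h in polyploid *mad1Δ bub2Δ* cells, from lowest to highest library, 0.407, 0.486 and 0.508 at 8 h and 0.767, 0.818 and 0.888 at 16 h. It thus dropped under all 0 h libraries at 8 h and at 16 h lay within their range. In nocodazole arrest it went from between 0.558 and 0.598 at 0 h to between 0.92 and 1.0 at 16 h, above all 0 h libraries. Cycling *mad1Δ bub2Δ* cells held between 0.519 and 0.541 at 0 h and between 0.54 and 0.577 at 16 h. The share in polyploid *cdc24-1 swe1Δ* cells went from between 0.731 and 0.829 to between 0.554 and 0.66 at 4 h and between 0.658 and 0.785 at 16 h. In *cdc20-1* arrest it went from between 0.719 and 0.767 to between 0.723 and 0.835. That overlap rested on the library that held *SWE1* counts, at 0.723, since the others, at 0.79 and 0.835, lay above all 0 h libraries. The shares were not tested, and they rise when a few abundant mRNAs fall.

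**Figure D5:**
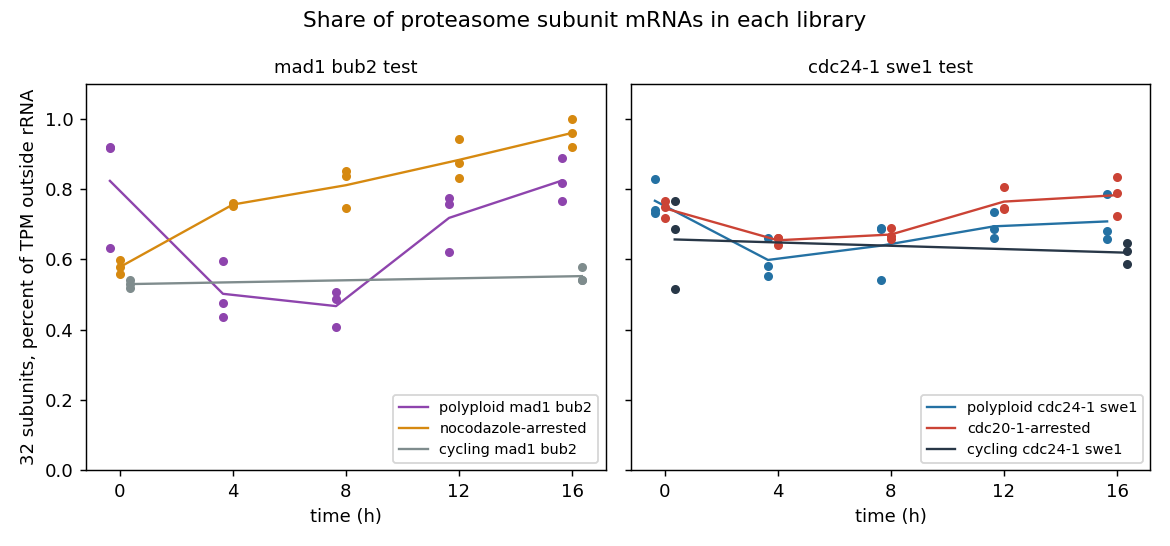
Summed TPM of the 32 subunit mRNAs as a percentage of TPM outside ribosomal RNA (vertical axis, from 0) against time in h (horizontal axis, points offset sideways for clarity), 1 point per library and lines through the means. In polyploid *mad1Δ bub2Δ* cells the share dips to between 0.407 and 0.508 at 8 h and returns to between 0.767 and 0.888 at 16 h, whereas nocodazole-arrested cells climb to between 0.92 and 1.0.

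Genes that work with the proteasome were followed over 16 h against the shares of all genes, which were 23.2% up and 21.7% down in polyploid *mad1Δ bub2Δ* cells and 26% and 23.4% in polyploid *cdc24-1 swe1Δ* cells. Most of their lists had few members, and none was tested against the subunits. In the Cdc48 complex, which pulls ubiquitylated proteins out of membranes and assemblies ahead of the proteasome, 5 of 8 genes fell and 0 rose over 16 h in polyploid *mad1Δ bub2Δ* cells, with a median of -0.39. In polyploid *cdc24-1 swe1Δ* cells 5 fell and 1 rose, with the same median of -0.39. The ATPase *CDC48* itself changed by -0.39 and -0.999 there, by -0.67 in *cdc20-1* arrest and by 0.23, not called, in nocodazole arrest. Of 9 assembly chaperones 1 rose and 2 fell in polyploid *mad1Δ bub2Δ* cells and 2 rose and 0 fell in polyploid *cdc24-1 swe1Δ* cells, with medians of -0.14 and 0.03. *NAS2*, which holds ATPases during assembly of the base, fell by 1.49 in polyploid *mad1Δ bub2Δ* cells (adjusted p = 7.83e-06) and was at -0.01 in the other polyploid cells. *POC4*, a chaperone of the alpha ring, rose by 1.01 and 1.24 in the 2 polyploid kinds, and also by 1.09 in cycling *mad1Δ bub2Δ* cells and 0.91 in *cdc20-1* arrest.

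Among 10 proteasome-associated proteins 3 rose and 4 fell in polyploid *mad1Δ bub2Δ* cells, and 1 rose and 2 fell in polyploid *cdc24-1 swe1Δ* cells. The lid subunit *SEM1*, in this list, fell by 0.69 in the former (adjusted p = 0.0307) and was not called in the latter (-0.205, adjusted p = 0.6). *SPG5*, a proteasome regulator of stationary phase, rose by 0.44 and 1.43 in the polyploid kinds, and by 3.24 in nocodazole arrest and 2.63 in *cdc20-1* arrest. Of 24 genes for ubiquitin and its conjugation 3 rose and 6 fell in polyploid *mad1Δ bub2Δ* cells, and 4 rose and 7 fell in the others, with the falls near the shares of all genes. The conjugating enzyme gene *UBC11* rose by 4.36 ± 0.96 and 3.21 ± 0.66 in the polyploid kinds, and by 1.99 and 1.85 in nocodazole and *cdc20-1* arrest. *RPS31*, which encodes ubiquitin fused to a ribosomal protein, fell by 0.90 and 1.17 in the polyploid kinds and by more in the arrests (-1.599 and -1.46), and rose by 1.16 in cycling *mad1Δ bub2Δ* cells. Of 17 other deubiquitinases 5 rose and 1 fell, and 4 rose and 0 fell, with the rises near the shares of all genes. Among 5 regulators of *RPN4* the heat shock factor *HSF1* fell by 0.68 in cycling *mad1Δ bub2Δ* cells. It rose by 0.54 in polyploid *mad1Δ bub2Δ* cells, 0.63 in nocodazole arrest, 0.45 in polyploid *cdc24-1 swe1Δ* cells and 0.42 in *cdc20-1* arrest. In that order 23.2%, 31.7%, 26% and 28% of all genes rose. *YAP1* changed by 0.55, 0.46, 0.006 and 0.32 in the same order, and the third of these was not called. *PDR3* fell by 0.54 in polyploid *mad1Δ bub2Δ* cells and by 1.17 in nocodazole arrest, and rose by 0.78 in polyploid *cdc24-1 swe1Δ* cells.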

How the data were processed

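The authors sequenced poly(A)-selected RNA and, with STAR and Salmon in the nf-core/rnaseq pipeline on the S288C R64-1-1 assembly, deposited estimated counts per gene, rounded, with no normalization. A second deposited table held log2(TPM + 1). DNA content was copied from the sample records. Each column matched 1 sample, and 0 did not. Counting was not stated to use strand, and no RefSeq gene overlaps a member.

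Counts were filtered (filterByExpr over conditions), scaled by TMM and tested with edgeR 4.0.16 (quasi-likelihood, R 4.3.3), with 1 coefficient per condition over the 36 libraries of a test, or with DNA content as the only variable, as in the study's methods. Thresholds were 0.05. Adjusted p-values are from edgeR over all genes tested unless another tool is named. For the contrasts between conditions they rest on the spread between replicate cultures. For the slopes they rest on the scatter of all libraries fitted around the line, which also holds differences between times and kinds of cells. The main fits do not pair the libraries of a culture, so the times of a culture count as independent. CPM are TMM-scaled counts. Levels between genes are TPM.

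The members and gene lists were chosen with earlier results of these data known. Library values were given for *RPN4*, *UBP6*, the 3 catalytic subunits, members called for DNA content and the 2 subunits with the largest and the 2 with the smallest 16 h change in each polyploid kind. Of every other list, up to 3 genes with the largest called change were eligible.

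Alternatives were DESeq2 1.42.0, limma 3.58.1 on log2(TPM + 1), also centred on each library's median gene (chosen after seeing the data), no filter, no ribosomal RNA, no library over 10% of it (added later), a culture block, each replicate left out, cells as a covariate and log2 DNA content. Samples of a culture share its number across times, as the study's methods describe, so the block pairs them. Their deviations correlated little (median 0.0266 over 126 pairs, 28.6% of pairs over 0.1). Of 72 replicate pairs 0 were identical. On simulated counts, a 16 h log2 change of 0.5 was recovered for 11% of genes and one of 1 for 65.7% in the *mad1Δ bub2Δ* test, and for 17.3% and 69.4% in the other. The simulation gave these changes to 100 and 99 of 6025 genes, and to 98 and 98 of 6028. In the data 44.8% and 49.3% of all genes were called at 16 h in the 2 polyploid kinds. The adjusted cutoff was thus stricter in the simulation, and its recovered shares are not those of the reported tests. Counting limits cover counting error only. The python steps used pandas 2.3.3 and matplotlib 3.10.9.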

Additional observations from a re-analysis of the deposited data

Results flagged for a closer look

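The results below were singled out because the change of a member differed between polyploid and arrested cells of the same test by an interaction term in edgeR at an adjusted p under 0.05. Over 4 h in the *mad1Δ bub2Δ* test these were *PUP1* (-0.95), *UBP6* (-0.82), *RPN10* (-0.76), *RPN7* (-0.75), *RPT5* (-0.73), *RPN6* (-0.71), *RPT2* (-0.71), *RPT1* (-0.62), *PRE7* (-0.62), *RPT6* (-0.60), *RPN1* (-0.58), *RPT3* (-0.57) and *RPN2* (-0.51), all lower in polyploid cells. Over 16 h in that test they were *UBP6* (-0.89), *RPN9* (-0.68), *RPT2* (-0.66), *RPT3* (-0.55) and *PRE7* (-0.50). Over 16 h in the *cdc24-1 swe1Δ* test they were *RPT5* (-0.62) and *RPT2* (-0.56). *RPT2* appears in each of the 3 comparisons. Those over 4 and 16 h in the *mad1Δ bub2Δ* test share their 0 h libraries. Its call in the *cdc24-1 swe1Δ* test was lost without any single arrested replicate and with culture as a block. In the order given, 38.2%, 14.7% and 5.88% of members were called lower, against 13.6%, 12.6% and 7.53% of all genes. At 0 h, 2 members were called higher in the polyploid than in the arrested *mad1Δ bub2Δ* test cultures. The members' median difference at 0 h was 0.30 (all genes 0.04), which enters the differences of that test.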

How the results depend on the processing

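Of the numbers of members called in either direction, 206 stayed within 1.5 times of the main value under an alternative and 111 did not. Of the values of single genes, 666 kept their direction and call, 167 were no longer called and 14 changed sign. The cause of the moves was not tested beyond the shift of the median gene. With limma on log2 TPM, polyploid *mad1Δ bub2Δ* cells had 31, 6 and 5 members called at 4, 12 and 16 h, and polyploid *cdc24-1 swe1Δ* cells 5, 2, 13 and 6 at 4, 8, 12 and 16 h. On that scale nocodazole arrest had 16, 24, 27 and 31, all of them rises, *cdc20-1* arrest 2, 2, 3 and 3, and cycling cells 6 and 0. The polyploid minus arrested counts of the *mad1Δ bub2Δ* test were 31 over 4 h, 23 over 16 h and 16 at 0 h, that of the other over 16 h was 0, and both slope counts were 0. Signs turned at 16 h for *PRE7* in polyploid cells (0.10 and 0.17) and cycling *mad1Δ bub2Δ* cells (-0.04), for *PRE2* in the latter (-0.031), for *RPT1* in nocodazole arrest (0.19), for *RPT4* in polyploid *cdc24-1 swe1Δ* cells (0.23), and in *cdc20-1* arrest for *RPT2* (0.044), *RPT3* (0.011), *UBP6* (0.10), *RPT5* (0.23) and *RPT4* (0.10).

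With log2 TPM centred on the median gene, counts moved to 9 and 7 for nocodazole arrest at 8 and 16 h, to 8 and 1 for the polyploid minus arrested change over 4 and 16 h in the *mad1Δ bub2Δ* test, and to 1 for the 0 h difference in each test. Against cycling cells at 0 h, 3 members were called in polyploid *mad1Δ bub2Δ* cells at 16 h, each a rise, with *RPT2* at 0.063 and *RPT3* at 0.084, and against cycling cells at 16 h *RPT3* was at 0.16. With DESeq2 the 0 h differences were called for 4 and 1 members and the slopes for 2, 6 and 2 (difference between tests). With no filter on low counts, nocodazole arrest at 4 h had 1, cycling *cdc24-1 swe1Δ* cells 0, the polyploid minus arrested change over 16 h 1 and 0, and the 0 h *mad1Δ bub2Δ* difference 1. Without ribosomal RNA features the first of these was 1 and the second 0. At a Benjamini-Hochberg threshold the slopes were called for 8, 22 and 10 members, and with the kind of cells as a covariate the *mad1Δ bub2Δ* slope was called for 0. Without the library that held *SWE1* counts, the *cdc24-1 swe1Δ* differences were called for 0 over 16 h and 1 at 0 h. Without the 2 libraries over 10% ribosomal RNA, chosen after seeing the data, the 16 h difference was called for 0 and the slope for 1.

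With culture as a replicate block, or the replicate number at 0 h, counts moved to 7 and 5 in nocodazole arrest at 8 and 16 h, 0 in cycling *cdc24-1 swe1Δ* cells, 0 for the polyploid minus arrested change over 16 h in that test, 5 and 1 for the 0 h differences, and 0 and 1 for the slopes. The block moved no other count by over 1.5 times.

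Leaving out each replicate in turn gave ranges, from lowest to highest count, that for polyploid *mad1Δ bub2Δ* cells were 8 to 17, 14 to 21, 8 to 17 and 9 to 24 (4, 8, 12 and 16 h). For the other polyploid cells they were 10 to 29, 12 to 24, 29 to 31 and 27 to 33. They were 0 to 0, 1 to 3, 1 to 1 and 2 to 3 in nocodazole arrest, 9 to 18, 11 to 17, 20 to 21 and 14 to 25 in *cdc20-1* arrest, and 2 to 18 and 0 to 0 in cycling cells. The polyploid minus arrested ranges of the *mad1Δ bub2Δ* test were 4 to 15 over 4 h, 1 to 7 over 16 h and 0 to 14 at 0 h, and 0 to 0, 0 to 3 and 0 to 1 in the other. Those of the slopes were 0 to 1, 0 to 4 and 0 to 0. All members passed the filter on low counts, but with 3 cultures per condition few changes of 0.5 were recovered on simulated counts. Far fewer genes changed in that simulation than were called in the data, so its adjusted cutoff was stricter.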
